A study of Rattus norvegicus with 8 samples.

Results

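The 4 microRNAs (miRNAs) rno-miR-3473, rno-miR-1896, rno-miR-6216 and rno-miR-328a-5p, written below without the species prefix, were followed across 8 arrays of rat kidney RNA. They were taken by name from the 758 miRNAs on the array. They had been chosen because earlier values from these same arrays placed them higher in nephrectomized replicates 1, 2 and 4 but not in nephrectomized replicate 3. The difference between the groups, the place of replicate 3 and the likeness of the 4 profiles were thus used in the choice, and they are given here as a description with no test.

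The study compared the kidney that remained after unilateral nephrectomy (removal of 1 kidney) with the kidney of sham-operated rats, with 4 arrays per group, each taken as 1 rat. All animals were 10-week-old F344/NSlc males, and the labels name the right kidney and no drug or transgene. The labels put the nephrectomized kidneys at day 2 and the sham kidneys at day 1, whereas the design text speaks of 2 days, so surgery and time cannot be told apart if the labels hold. All 8 arrays lay on 1 slide in 1 scan, with the nephrectomized arrays in row 2 and the sham arrays in row 1, so slide row and group cannot be told apart either.

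A miRNA is a short RNA, cut from the stem of a hairpin precursor, that guides an Argonaute protein to messenger RNAs. Pairing of its seed, bases 2 to 8 from the 5′ end, with a target site generally lowers the target's translation and stability. After loss of a kidney the other one grows, largely through enlargement of tubule cells. Each level here is a probe signal, which reports whatever labelled RNA the probe binds.

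RefSeq (build GRCr8) held a mature sequence for 3 of the 4 miRNAs. They are shown 5′ to 3′ with the seed in capitals, since a shared seed would join their targets.
miR-3473: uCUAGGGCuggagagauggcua
miR-1896: uGGUGGGUgaggaggagg
miR-6216: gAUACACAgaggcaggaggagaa
The 3 seeds differ from each other, and no other rat miRNA in the RefSeq table shared any of them. All 3 sequences are rich in purines, which make up 63.6% of miR-3473, 83.3% of miR-1896 and 82.6% of miR-6216. The mature miR-3473 lies at chr13:42051730-42051751 (plus strand) in a hairpin of 67 bases inside the protein-coding gene Zranb3. The mature miR-1896 lies at chr17:47861018-47861035 (minus strand) in a hairpin of 81 bases inside Zscan26. The mature miR-6216 lies at chr3:65165595-65165617 (minus strand) in a hairpin of 78 bases that overlaps no other RefSeq gene. The hairpin of miR-328a, of 84 bases, lies at chr19:50094691-50094774 inside Elmo3. The 4 hairpins are thus on 4 chromosomes. Whether they fall in exons or introns was not analysed here.

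Each miRNA was read by 2 probes that differ by 1 base in length, and each probe was printed as 8 spots per array. The longer probes are shown 5′ to 3′ because they share the bases CTCC, given in capitals.
miR-3473 probe: tagccatctCTCCagc
miR-1896 probe: cCTCCtcctcaccc
miR-6216 probe: ttCTCCtcctgcctc
miR-328a-5p probe: tgagcccCTCCtgc
Both probes of miR-3473, miR-1896 and miR-6216 are complementary to the 3′ end of the mature miRNA. The longer probe covers bases 7 to 22 of miR-3473 and bases 5 to 18 of miR-1896, which takes in the end of the seed, and bases 9 to 23 of miR-6216, which does not. The array file maps the miR-328a-5p probe to chr19:35122567-35122579 of build rn4 and gives no position for the probes of the other 3.

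Several measures of whole arrays, which the choice of the 4 miRNAs did not use, differed between the groups. Between 224 and 230 miRNAs were detected on the nephrectomized arrays, against 242 to 253 on the sham arrays. The 75th percentile of signal averaged 7.40 ± 0.095 in nephrectomized and 7.68 ± 0.11 in sham arrays (log2, SD, n = 4 each). The labelling spike-ins averaged 10.20 ± 0.18 in nephrectomized and 10.56 ± 0.036 in sham arrays on the same scale. The hybridisation spike-ins averaged 13.33 ± 0.020 in nephrectomized and 13.37 ± 0.0082 in sham arrays. Each of these 4 measures was lower on every nephrectomized array (exact two-sided permutation test, p = 0.0286, the smallest that 4 against 4 allows; adjusted p = 0.0429 over 6 measures). Local background (25.9 ± 0.18 in nephrectomized, 25.4 ± 0.34 in sham arrays, exact permutation p = 0.0571, adjusted p = 0.0686) and the signal of negative controls (2.32 ± 0.20 in nephrectomized, 2.35 ± 0.19 in sham arrays, exact permutation p = 0.83) did not pass. On all 6 measures nephrectomized replicate 3 lay between the other nephrectomized arrays. Levels below are signals divided by each array's 75th percentile and brought back to a common scale in arbitrary units, which does not remove a difference in labelling that varies between miRNAs.

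miR-3473 had scaled signals of 313.7, 322.3, 156.6 and 277.5 in nephrectomized replicates 1, 2, 3 and 4. The sham replicates 1, 2, 3 and 4 had 154.0, 141.8, 176.8 and 157.5. Replicates 1, 2 and 4 lay well above every sham array and replicate 3 lay among them, above 2 of 4. On the log2 scale the level averaged 8.01 ± 0.49 in nephrectomized and 7.29 ± 0.13 in sham kidneys (SD, n = 4 each), a difference of 0.71 ± 0.22 (SE), or 1.64-fold. Replicates 1, 2 and 4 averaged 0.95 above the sham mean, and replicate 3 lay level with it (-0.0041).

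miR-1896 had scaled signals of 34.8, 35.2, 24.3 and 32.0 in nephrectomized replicates 1 to 4. The sham replicates 1 to 4 had 20.6, 21.7, 23.0 and 21.4. All 4 nephrectomized arrays lay above all 4 sham arrays, replicate 3 least so. The log2 level averaged 4.96 ± 0.25 in nephrectomized and 4.44 ± 0.068 in sham kidneys (SD, n = 4 each), a difference of 0.53 ± 0.12 (SE), or 1.44-fold. Replicates 1, 2 and 4 averaged 0.65 above the sham mean, and replicate 3 lay 0.16 above it.

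miR-6216 had scaled signals of 144.3, 141.5, 107.4 and 130.6 in nephrectomized replicates 1 to 4. The sham replicates 1 to 4 had 103.3, 97.7, 97.3 and 102.5. Here too the groups did not overlap on this scale, and replicate 3 lay just above the highest sham array. The log2 level averaged 7.02 ± 0.19 in nephrectomized and 6.65 ± 0.045 in sham kidneys (SD, n = 4 each), a difference of 0.38 ± 0.091 (SE), or 1.30-fold. Replicates 1, 2 and 4 averaged 0.47 above the sham mean, and replicate 3 lay 0.10 above it.

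miR-328a-5p, the 5′ arm of the miR-328a hairpin, was dim. It was detected on 3 of 4 nephrectomized arrays, replicate 3 being the exception, and on 2 of 4 sham arrays, replicates 3 and 4. Its scaled signals were 9.74, 7.24, 3.20 and 10.3 in nephrectomized replicates 1 to 4, against 3.37, 3.57, 4.68 and 4.78 in sham replicates 1 to 4. Replicates 1, 2 and 4 lay above every sham array and replicate 3 below every one. The log2 level averaged 2.79 ± 0.78 in nephrectomized and 2.02 ± 0.26 in sham kidneys (SD, n = 4 each), a difference of 0.78 ± 0.36 (SE), or 1.71-fold.

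**Figure D1:**
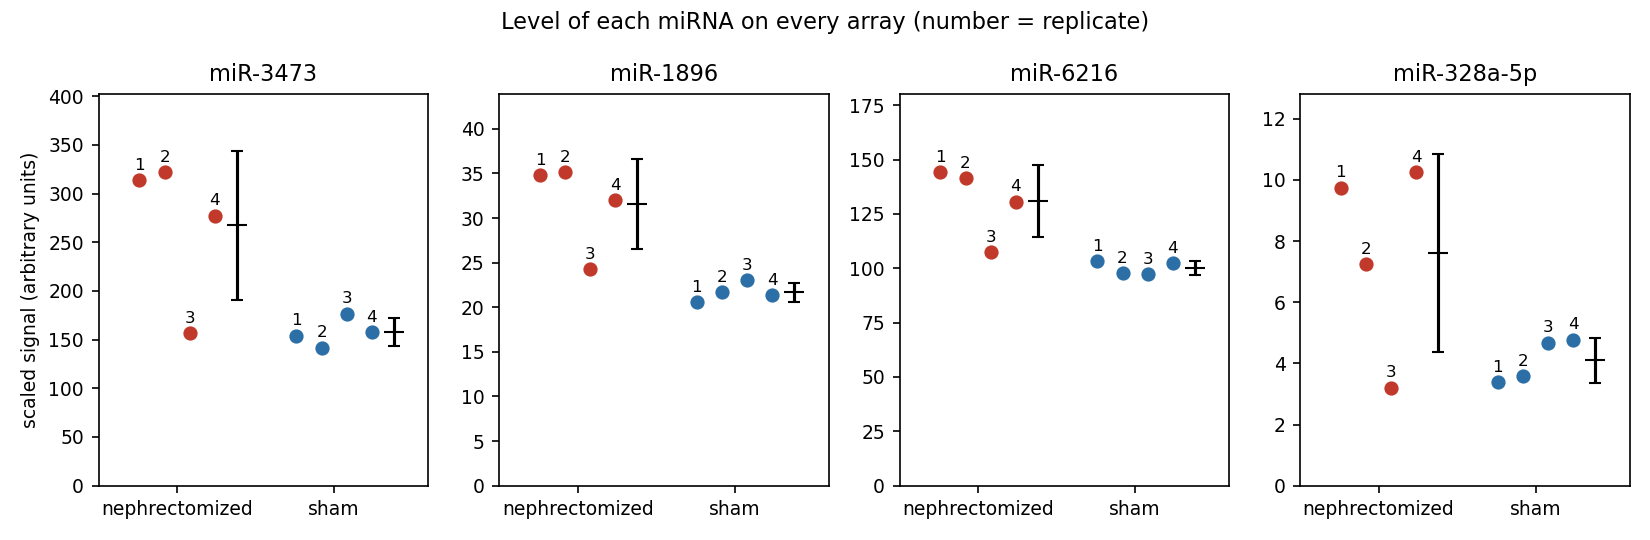
Scaled signal in arbitrary units (vertical axes from 0) of each miRNA on every array, with the 4 nephrectomized replicates left of the 4 sham replicates, each point numbered by its replicate. Black marks give the group mean and SD (n = 4). Nephrectomized replicates 1, 2 and 4 stand above every sham array in each panel. Replicate 3 lies among or below the sham arrays for miR-3473 and miR-328a-5p and just above them for miR-1896 and miR-6216.

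The description under which the 4 were chosen therefore held in full for miR-3473 and miR-328a-5p. For miR-1896 and miR-6216 replicate 3 was the lowest nephrectomized array but, in scaled signal, still above every sham array. The gap between the mean of nephrectomized replicates 1, 2 and 4 and replicate 3 was 1.49 (log2) for miR-328a-5p, 0.96 for miR-3473, 0.48 for miR-1896 and 0.37 for miR-6216.

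A total of 238 miRNAs were detected on at least 4 of the 8 arrays and were tested, all 4 members among them. In limma, 0 of the 238 (0%) passed an adjusted p of 0.05, while 48 (20.2%) passed an unadjusted p of 0.05, 37 of them higher (15.5%) and 11 lower (4.62%). That split turned with the scaling: it was 1 higher and 172 lower with no scaling, and 20 higher and 89 lower with the percentile taken over all miRNAs. All 4 members had a difference above 0, as did 113 of 238 (47.5%). The groups did not overlap for 25 miRNAs that were higher in nephrectomized kidneys (10.5%), miR-1896 and miR-6216 among them, and for 10 that were lower (4.2%). All 4 members had nephrectomized replicates 1, 2 and 4 above every sham array, which held for 29 of 238 (12.2%). The further condition that these 3 arrays also exceed replicate 3 held for 9 of 238 (3.78%), the 4 members and miR-542-5p, miR-667-3p, miR-5132-3p, miR-466b-3p and miR-107-3p. The mirror image, with replicates 1, 2 and 4 below every sham array and below replicate 3, also held for 9 of 238 (3.78%). The strict form, with replicate 3 not above all sham arrays, held for 4 of 238 (1.68%), namely miR-328a-5p, miR-3473, miR-542-5p and miR-5132-3p.

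What set the 4 apart from the others with the same order of arrays was size, which the choice used. Their gaps ran from 0.37 to 1.49 (log2), while those of the other 5 ran from 0.033 to 0.17. The median gap of the 4 was 0.72, against -0.053 over all tested miRNAs, and their median difference between groups was 0.62, against -0.0077. Just outside the pattern lay miR-347 (gap 1.04) and miR-6215 (gap 1.03), named after their values were seen. In these, replicate 3 lay 0.71 and 0.79 below the sham mean, while only 2 nephrectomized arrays of each exceeded every sham array.

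The co-variation of the 4 was read from deviations from each group's mean, so that the difference between the groups could not create it. Over the 8 arrays the 6 pairs of members had Pearson r from 0.79 to 0.97, with a median of 0.88, and Spearman rho from 0.38 to 0.93. The median r over the 28203 pairs of tested miRNAs was 0.17, and over the 1128 pairs of the 48 other miRNAs whose longest probe was 60% or more G and C it was 0.42. These correlations share the arrays and their scaling, and the members were picked for a low replicate 3.

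Without nephrectomized replicate 3 the median over the 6 pairs was 0.15, with a range from -0.32 to 0.77. It was then close to the median of 0.16 over all pairs of tested miRNAs and below the 0.46 of the pairs with high probe GC content. miR-3473 and miR-1896 kept an r of 0.77 over the 7 arrays that remained. The pair of miR-6216 and miR-328a-5p had an r of 0.79 with replicate 3 and of -0.32 without it. The 2 arrays where the members' deviations from the group means averaged farthest from 0 were nephrectomized replicates 1 and 3. With both left out, the median was 0.056 over 6 arrays. The co-variation of the 4 thus rested on nephrectomized replicate 3, with miR-3473 and miR-1896 as the exception.

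**Figure D2:**
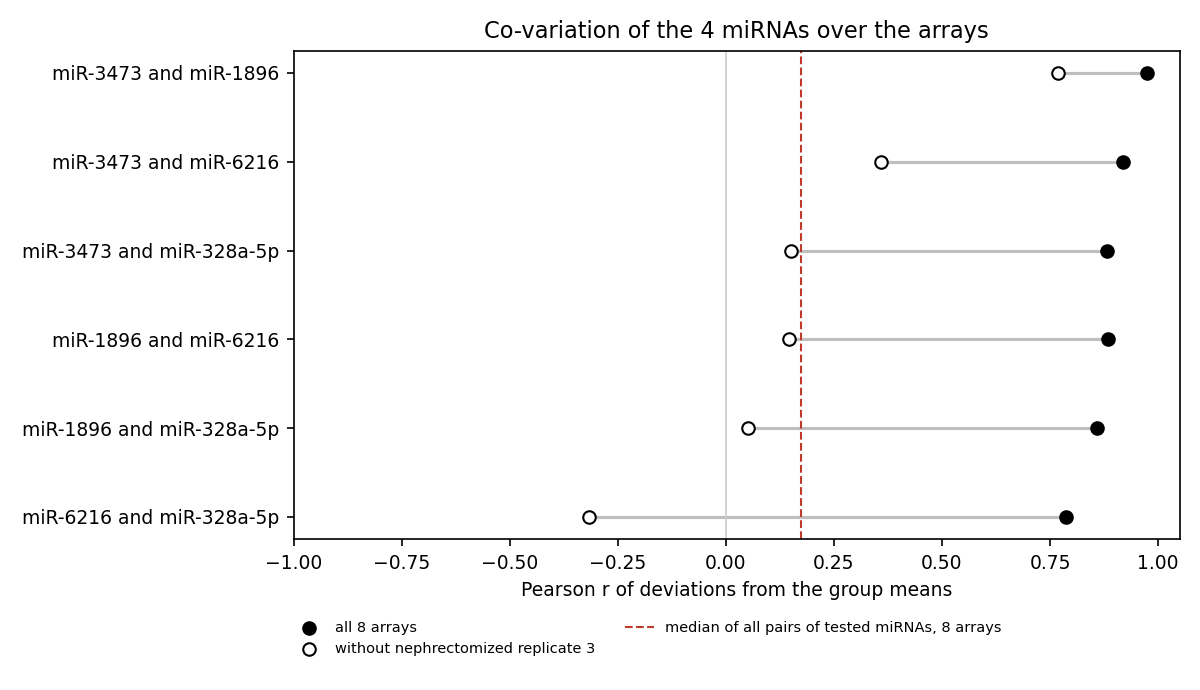
Pearson r (horizontal axis) of the deviations from the group means for the 6 pairs of the 4 miRNAs, over all 8 arrays (filled points) and over the 7 arrays without nephrectomized replicate 3 (open points). The dashed line marks the median of 0.17 over all pairs of tested miRNAs. The filled points lie between 0.79 and 0.97 and the open ones between -0.32 and 0.77.

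Among the other 234 tested miRNAs, the 8 whose log2 level over the 8 arrays was most like the mean standardized profile of the members were miR-667-3p (r = 0.85), miR-542-5p (0.84), miR-466b-3p (0.74), miR-192-5p (0.72), miR-107-3p (0.70), miR-181a-1-3p (0.68), miR-423-5p (0.67) and miR-5132-3p (0.66). Their differences between the groups were smaller than those of the members, from 0.058 for miR-107-3p to 0.34 for miR-667-3p (log2). miR-542-5p was the closest within groups, with an r of 0.86 in the deviations from group means. Its scaled signals were 14.0, 14.1, 12.6 and 14.3 in nephrectomized replicates 1 to 4 and 13.0, 13.5, 13.0 and 13.3 in sham replicates 1 to 4. Its nephrectomized replicates 1, 2 and 4 lay above every sham array and replicate 3 below every one, with a gap of 0.17 (log2). miR-192-5p, an abundant miRNA of kidney tubules, was like the members through the group difference alone: its r in deviations was -0.088. The most opposite profiles were those of miR-29a-5p (r = -0.87), miR-22-3p (-0.86), miR-27a-3p (-0.83) and miR-26a-5p (-0.82).

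The 2 probes of each member were compared next, since they bind the same RNA and are not replicates of a condition. All 8 probes placed nephrectomized replicates 1, 2 and 4 above every sham array. The longer probe of miR-3473 had 499.7 to 578.8 in nephrectomized replicates 1, 2 and 4 and 282.8 in nephrectomized replicate 3, against 255.2 to 316.7 in the sham arrays. Its shorter probe had 55.4 to 66.5 in nephrectomized replicates 1, 2 and 4 and 30.3 in replicate 3, against 28.4 to 36.9 in the sham arrays. The low place of replicate 3 for miR-3473 was therefore present in both probes. Spots of these probes on an array had median coefficients of variation of 3.58% for the longer and 5.50% for the shorter probe, which is the technical spread within an array.

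Across the 8 arrays the deviations of the 2 probes had an r of 0.998 for miR-3473, 0.95 for miR-1896, 0.95 for miR-328a-5p and 0.80 for miR-6216. The median over the other 231 tested miRNAs with 2 or more probes was 0.79. The members were chosen for replicate 3 standing apart from its group, and 1 such array raises the r between probes. The other miRNAs were not chosen so, and nothing is read from this comparison. The 2 probes of miR-1896 gave the same difference between the groups, 0.53 (log2) each. Those of miR-6216 did not: the shorter probe gave 0.70 and the longer 0.33. On the shorter probe nephrectomized replicate 3 (22.3) lay among the sham arrays (19.4 to 22.9). On the longer one it lay above them all (192.6, against 171.6 to 186.8). The longer probe carries most of the averaged miR-6216 signal, so the level of miR-6216 follows it.

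miR-328a-5p rested on little signal. Its shorter probe was well above background on 0 of 64 spots, and its longer probe on 22 of 64. Of those 22 spots, 17 were on nephrectomized replicates 1, 2 and 4, 0 on nephrectomized replicate 3 and 5 on the sham arrays. The median coefficient of variation between spots was 15.7% for the longer and 64.1% for the shorter probe. For the 6 probes of the other 3 miRNAs, all 64 spots were well above background.

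**Figure D3:**
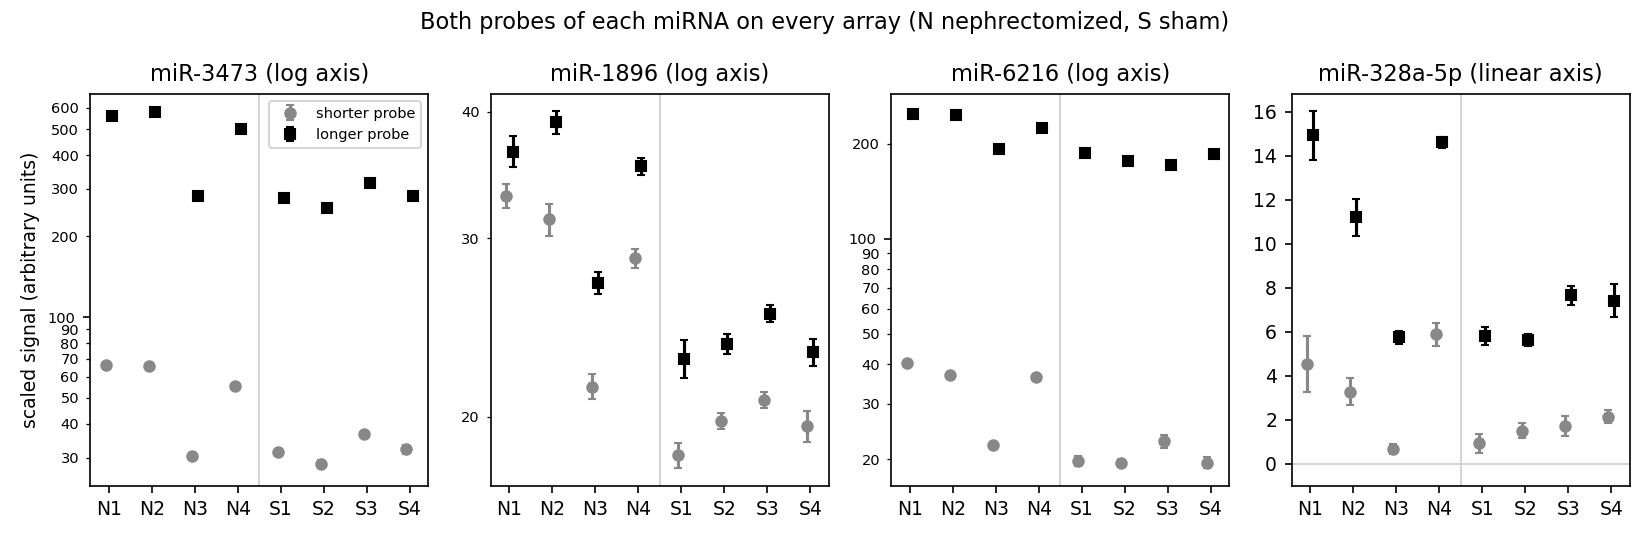
Scaled signal in arbitrary units of the shorter (grey circles) and longer (black squares) probe of each miRNA on nephrectomized arrays 1 to 4 (N1 to N4) and sham arrays 1 to 4 (S1 to S4). Bars give the standard error over spots, and the axis is logarithmic except for miR-328a-5p. In both probes of each miRNA N1, N2 and N4 lie above every sham array, while N3 is at or near the sham level.

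The local background beside the spots of miR-3473 averaged 26.0 ± 0.29 on nephrectomized and 25.6 ± 0.46 on sham arrays (scanner units, SD, n = 4 each). Beside the dim miR-328a-5p it averaged 26.8 ± 0.59 on nephrectomized and 25.3 ± 0.54 on sham arrays. The unsubtracted spot signal of miR-3473 was 6.75 to 13.0 times its local background on nephrectomized arrays, against 7.50 to 9.96 times on sham arrays. The ratio ran from 2.36 to 2.95 on nephrectomized and from 2.46 to 2.78 on sham arrays for miR-1896. It ran from 5.29 to 6.91 on nephrectomized and from 5.67 to 6.34 on sham arrays for miR-6216. For miR-328a-5p it was 1.59 to 2.02 on nephrectomized and 1.75 to 1.83 on sham arrays. The signals before scaling kept nephrectomized replicates 1, 2 and 4 above every sham array for miR-3473, miR-1896 and miR-328a-5p. For miR-6216 replicate 2 (117.5) then fell short of sham replicate 3 (117.8). Before scaling, nephrectomized replicate 3 lay below every sham array for miR-6216 (94.5, against 102.8 to 117.8), miR-3473 and miR-328a-5p. For miR-1896 it was 21.3, within the sham range of 20.9 to 27.9. Its place above every sham array for miR-1896 and miR-6216 thus depended on the scaling. With all backgrounds left unsubtracted, the difference of miR-328a-5p was 0.32 (log2) and that of miR-1896 0.32, while the median of all tested miRNAs was 0.12. The median gap of the 4 was then 0.22, against 0.72 with the background subtracted.

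The GC content of the longest probe was 71.4% for miR-1896 and miR-328a-5p and 60% for miR-6216. That of miR-3473, 56.2%, lay in the class of 50% to under 60%, with 70 of the 234 other tested miRNAs. The median difference was 0.090 (log2) over the 48 other tested miRNAs at 60% or more, and -0.058 over the 37 at under 40%. Over all 234 other miRNAs, GC content and the difference had an r of 0.19 and a rho of 0.30. The highest difference among those 48 was 0.34, below each of the 4 members. The gap between replicates 1, 2 and 4 and replicate 3 had an r of 0.052 and a rho of 0.0048 with GC content: its median was -0.057 in the 48 and -0.041 in the 37. It was above 0 for 12 of the 48 and 10 of the 37. The highest gap in the 48 was nevertheless 1.04 (miR-347), against 0.24 to 0.30 in the classes of lower GC content. These summaries thus describe most miRNAs and not the few large gaps. With the trend of level with probe GC content subtracted on each array, the difference was 0.70 (log2) for miR-3473, 0.46 for miR-1896, 0.35 for miR-6216 and 0.71 for miR-328a-5p, and the median gap was 0.77. Each of the 4 differences moved by less than the spread between replicates.

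**Figure D4:**
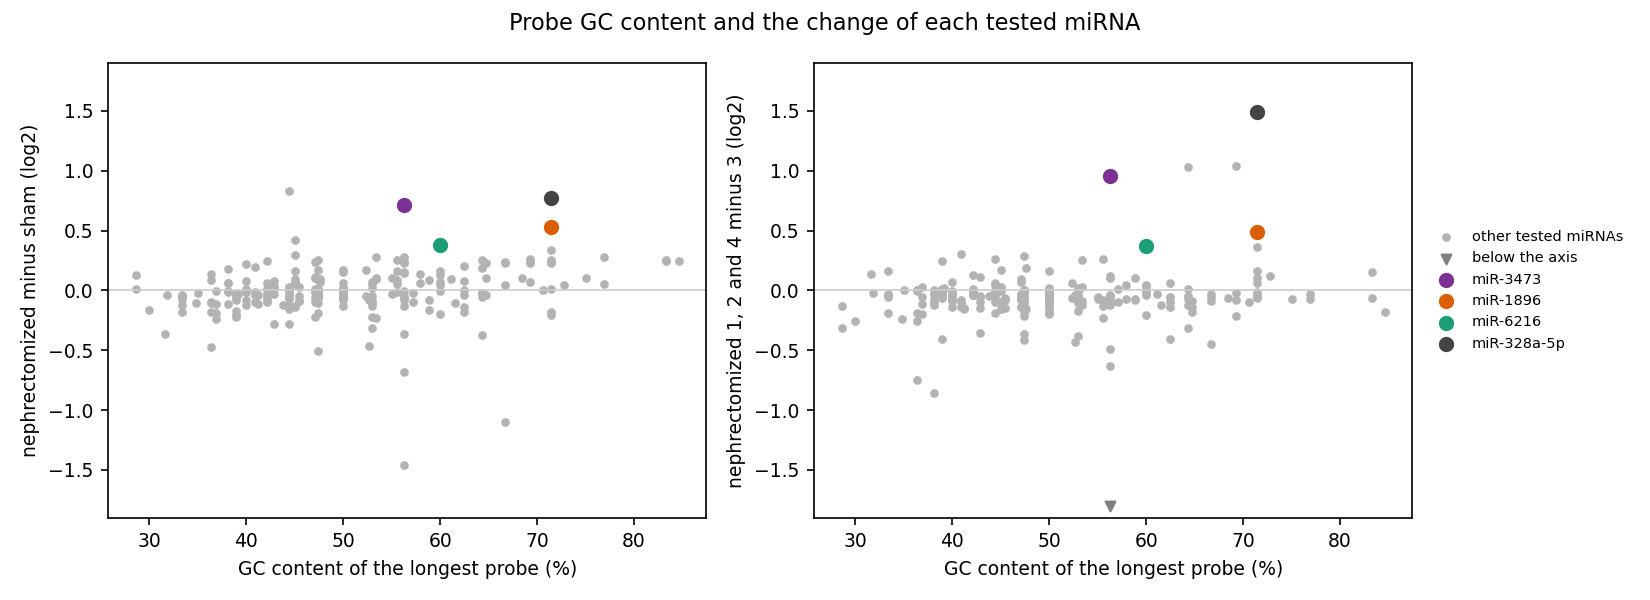
GC content of the longest probe in percent (horizontal axes) against the nephrectomized minus sham difference (left) and the gap of nephrectomized replicates 1, 2 and 4 minus replicate 3 (right), both log2. Grey points are the other 234 tested miRNAs, coloured points the 4 members, and the triangle is miR-3588 at -3.72. The difference is slightly higher at high GC content and the median gap is not, but the highest grey gap, 1.04, is at 60% or more. The members lie above most of the grey points in both panels.

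The 4 letters CTCC, searched in the probe strand only, were in all 8 probes of the members. Of the longest probes of all 758 miRNAs on the array, 40 (5.28%) held them, as did 15 (6.30%) of the 238 tested. The longest probes of miR-1896 and miR-6216 shared a run of 8 bases, CTCCTCCT, and those of miR-6216 and miR-328a-5p another run of 8, CCTCCTGC. A run of 8 or more was shared by 0.528% of all pairs of tested miRNAs, and the median shared run was 4 bases. The probe of miR-3473 shared at most 5 bases with the other 3. This likeness was noticed after the probes were seen.

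The 11 other tested miRNAs whose longest probe holds CTCC had smaller values than the members. Their differences ran from -0.47 to 0.044 (log2) with a median of -0.027, and 0 of the 11 passed the limma test (0 higher and 1 lower at an unadjusted p of 0.05). Their gaps ran from -0.43 to 0.36 with a median of 0.0070, and 0 of the 11 had the members' order of arrays. The miRNAs with the longest run in common with a member's probe were miR-711 (9 bases, with miR-3473) and miR-344g (8 bases, with miR-6216), neither of which was detected on any array. Of the miRNAs sharing 7 bases with the probe of miR-328a-5p, miR-652-5p (difference 0.011 ± 0.11, SE) and miR-3584-5p (-0.18 ± 0.10) were detected on all 8 arrays, and neither passed the limma test (adjusted p = 0.966 and 0.337).

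The other arm of the miR-328a hairpin, miR-328a-3p, was detected on all 8 arrays. Its log2 level averaged 5.79 ± 0.091 in nephrectomized and 5.68 ± 0.075 in sham kidneys (SD, n = 4 each). The difference of 0.10 ± 0.058 (SE) did not pass the limma test (adjusted p = 0.337). Nephrectomized replicate 3 lay 0.061 above the mean of replicates 1, 2 and 4, opposite to its place for miR-328a-5p. That value is smaller than the SD of 0.091 between nephrectomized arrays. miR-328a-5p was chosen for the place of replicate 3 and was not detected on that array. A contrast between the 2 arms there is thus favoured by the choice, and no conclusion on the arms is drawn.

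Listed markers placed the tissue. The 5 listed kidney tubule miRNAs (miR-192-5p, miR-194-5p, miR-204-5p, miR-30a-5p and miR-10a-5p) were detected on all 8 arrays. miR-122-5p of liver, miR-124-3p of neurons and miR-1-3p, miR-133a-3p and miR-206-3p of striated muscle were detected on none. The other listed neuron miRNA, miR-9a-5p, was detected on all 8 arrays, at a low mean log2 level of 2.91. None of the tested markers passed the limma test (0 of 17 at an adjusted p of 0.05, and 1 higher and 1 lower at an unadjusted p of 0.05). On nephrectomized replicate 3 the summed scaled signal of the 3 listed red blood cell miRNAs was 116.6, the highest of all arrays, with a range of 49.2 to 116.6 in nephrectomized and 46.8 to 95.9 in sham kidneys. It is carried by miR-451-5p, an erythroid miRNA, whereas miR-144-3p was detected on no array and miR-486 on 1 sham array. The 4 leukocyte miRNAs summed to 287.6 on replicate 3, with a range of 252.0 to 287.6 in nephrectomized and 267.5 to 291.3 in sham kidneys, although miR-155-5p of that list was not highest there. The sum of the 5 kidney tubule miRNAs was also highest on replicate 3 among the nephrectomized arrays, at 5961 in a range of 5660 to 5961. It was 5889 to 6044 in sham kidneys. Of that list, miR-192-5p, miR-204-5p and miR-10a-5p were not highest on replicate 3. The 3 striated muscle miRNAs, undetected throughout, summed to 4.03 on replicate 3, in a range of 2.78 to 4.03 in nephrectomized and 2.78 to 3.52 in sham kidneys. As miR-1-3p and miR-206-3p were at the floor of 0.925 on every array, this sum varied only through undetected miR-133a-3p, near the floor. Nothing is read from it. The part of other cells in the low members of replicate 3 was not tested, and in whole kidney RNA fewer cells of a type cannot be told apart from less RNA per cell.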

How the data were processed

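Total RNA of 8 rat kidneys was extracted (miRNeasy Mini Kit) and labelled with Cy3 using the Agilent kit for complete miRNA labelling, per the labels' protocols. Per the file headers, the deposited scanner tables hold spot intensities from Agilent Feature Extraction 12.0.3.1 after background subtraction and spatial detrending, with other columns of 0 or 1 for detected miRNAs and outlier spots. The deposited value table holds log2 values, which equal the log2 total signal per miRNA (0.1 where undetected), shifted per array and centred on each miRNA's median, within 1.1e-05. Its direction matches the scanner values, and the rule of its shift stays unknown. Its column medians ran from 0.052 to 0.17 in nephrectomized and from -0.25 to -0.052 in sham arrays.

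Control and outlier spots were left out, spots averaged per probe and probes per miRNA. Signals were scaled to the 75th percentile of the array, taken over 214 miRNAs that every array detected, values under 0.925 were set to that floor, and log2 was taken. No molecules are counted, so the number of arrays limits the precision. The 238 miRNAs detected on at least 4 arrays were fitted with limma 3.58.1 in R 4.3.3, with Benjamini-Hochberg adjustment, after a check on simulated data. Permutation tests used scipy 1.17.1. The 5 values at the floor have no order.

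The members and lists were chosen with earlier results of these data known. Beside the 4 members, the text names the 8 most and 4 least alike miRNAs by Pearson r with the mean standardized member profile, miR-328a-3p and listed markers. The miRNAs with a like order of arrays, large gaps or similar probes, the search for CTCC, the negative-control measure and the shortest-probe setting were added after values were seen. Same-numbered arrays shared only a slide column: their deviations correlated at 0.053, -0.077, 0.28 and -0.23, so the numbers were not taken as pairs.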

Additional observations from a re-analysis of the deposited data

Results flagged for a closer look

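Among 33 named miRNAs and 6 whole-array measures, 8 of 78 groups of 4 arrays had 1 array far from the other 3 by Dixon's 95% criterion. Chance alone gives about 1 in 20 groups, but that rate does not apply to miRNAs named for their profile over these arrays, such as miR-542-5p, miR-466b-3p, miR-107-3p and miR-22-3p. No member was among the 8. In nephrectomized kidneys, miR-542-5p was low on replicate 3 (log2 level 3.66, the others 3.81 to 3.84), the array that was also low for the members. miR-466b-3p (5.97, the others 5.67 to 5.72) and miR-107-3p (10.14, the others 10.06 to 10.07) were high on nephrectomized replicate 2. miR-10a-5p (10.94, the others 11.10 to 11.12) and miR-150-5p (5.66, the others 5.85 to 5.87) were low on nephrectomized replicate 1. miR-143-3p was low on nephrectomized replicate 4 (9.32, the others 9.51 to 9.54). In sham kidneys, miR-22-3p was low on replicate 1 (11.39, the others 11.47), and miR-9a-5p was high on replicate 4 (3.28, the others 2.94 to 2.96).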

How the results depend on the processing

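The differences of the 4 miRNAs stayed above 0 under every alternative run, from 0.43 to 0.95 (log2) for miR-3473, 0.25 to 0.65 for miR-1896, 0.096 to 0.73 for miR-6216 and 0.26 to 2.04 for miR-328a-5p. Beyond the spread between replicates, miR-1896 moved to 0.25 with no scaling, 0.29 with normexp correction and 0.32 with no background subtraction. miR-6216 moved to 0.096 with no scaling, 0.52 with the median of its log2 probe values and 0.73 with its shortest probe alone. miR-328a-5p moved to 2.04 with total gene signals and 2.00 in the submitters' value table, where an undetected array counts as 0.1. Requiring detection on all 8 arrays leaves miR-328a-5p out. The median of all tested miRNAs shifted to -0.11 with the percentile over all miRNAs, -0.29 with no scaling, 0.13 with normexp and 0.12 with no background subtraction. Relative to it, miR-6216 differed by 0.39, 0.39, 0.15 and 0.18. With normexp and with no background subtraction, miR-328a-5p fell to 0.26 and 0.32, or 0.13 and 0.20 relative to that median. These falls lay within its wide spread between replicates (0.58). Under the same 2 settings and relative to the median, miR-1896 differed by 0.16 and 0.20, and miR-3473 by 0.42 and 0.47.

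The median gap was 0.19 with normexp and 0.22 with no background subtraction, against 0.72. The median correlation was 0.95 with no scaling, 0.96 with scaling to the labelling spike-ins and 0.97 with the replicate number as a block, against 0.88. Leaving out 1 array at a time gave correlations from 0.15 (without nephrectomized replicate 3) to 0.92, gaps from 0.69 to 0.77 (none can be had without nephrectomized replicate 3 or under the block), and differences from 0.61 to 0.95 for miR-3473, 0.47 to 0.65 for miR-1896, 0.33 to 0.47 for miR-6216 and 0.59 to 1.15 for miR-328a-5p.

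The count of tested miRNAs past an adjusted p of 0.05 in limma was 0. It was 161 with no scaling, 156 with normexp, 141 with no background subtraction, 19 with the percentile over all miRNAs, 7 with total gene signals and with a trended robust variance, 6 with the probe GC trend subtracted, 5 with the longest probe, the shortest probe or the value table, 4 with a floor 4 times as high, and 1 with quantile normalization, spike-in scaling or detection on all 8 arrays. With the replicate block it was 0, so the block changed no call. Leaving out 1 array gave 0 to 5, with 5 without nephrectomized replicate 3 and 1 without nephrectomized replicate 1. All 4 members were among the calls without nephrectomized replicate 3, with normexp and with no background subtraction, 2 with the trended robust variance, 1 with the longest probe and 0 under the other alternatives. Since this contrast chose the members, nothing is read from these counts. The cause of these changes was not tested.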

Other observations

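All 4 of the most opposite profiles, miR-29a-5p, miR-22-3p, miR-27a-3p and miR-26a-5p, had nephrectomized replicates 1, 2 and 4 below every sham array and below replicate 3, the mirror image of the members. They were chosen for the lowest r with the member profile over these same arrays, so the choice itself favoured such an order. Over all tested miRNAs it held for 9 of 238 (3.78%). The values of miR-29a-5p and miR-22-3p are given in full. miR-29a-5p had scaled signals of 2.12, 2.21, 3.35 and 1.70 in nephrectomized replicates 1 to 4, against 2.79, 3.99, 2.83 and 3.14 in sham replicates 1 to 4. It was dim, detected on 3 of 4 nephrectomized and 4 of 4 sham arrays. miR-22-3p had 2591, 2624, 2839 and 2634 in nephrectomized replicates 1 to 4, against 2688, 2839, 2836 and 2829 in sham replicates 1 to 4. Replicate 3 lay among the sham arrays for miR-29a-5p and level with the highest sham array for miR-22-3p, but below every sham array for miR-27a-3p and miR-26a-5p.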
